A study of Rattus norvegicus with 6 samples.

Results

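Cell death regulators were examined in cultured rat spinal cord neurons in which GAL3 (galectin-3, listed as LGALS3) had been silenced. They were chosen by gene symbol from a list of 39 genes of the BCL2 family, the caspases, the inhibitors of apoptosis, the death receptor complex and the executors of necroptosis and pyroptosis. Of these, 36 were found among the 17648 rows of the expression table. MCL1, BBC3 and CASP6 were not found under those symbols and were not analysed here. The cells came from the spinal cord of neonatal Sprague-Dawley rats and were cultured for 3 days, with Ara-C at 0.05 mg/mL against dividing cells added 24 h after plating. The Glu + siR-Con group (n = 3 libraries) received a control small interfering RNA and the Glu + siR-GAL3 group (n = 3) one against GAL3. The design text and the methods describe both groups as exposed to glutamate, a model of excitotoxic injury. The protocol gives 10 μM for 1 h, with 16 h of further culture without it. The sample labels instead give saline for the control libraries and call the GAL3 samples a knockout. If those labels hold, glutamate and the loss of GAL3 cannot be told apart. The study states for its data as a whole that experiments were repeated independently, without saying which cultures or animals gave these libraries, so every p-value measures only the spread between them.

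Apoptosis through mitochondria is governed by the BCL2 family. BAX and BAK1 form pores in the outer mitochondrial membrane, BCL2 and its antiapoptotic relatives restrain them, and BH3-only proteins release that restraint. The pores let out cytochrome c, which joins APAF1 and CASP9 in the apoptosome and starts the caspase cascade. Necroptosis and pyroptosis are lytic forms of death that rupture the plasma membrane. RIPK3 activates MLKL in necroptosis, and inflammatory caspases cleave GSDMD in pyroptosis. In the spinal cord the inflammatory forms are best known from microglia and infiltrating myeloid cells.

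The values are FPKM-derived expression values, that is, reads per gene scaled by gene length and library size, which the authors then corrected for batch and for differences within groups. Column totals lay between 64313 and 64714, the number of reads behind each value is unknown, and the spread between replicates is what that correction left. The silenced gene was lower in every siR-GAL3 library. The mean of LGALS3 was 64.8 ± 11.7 with the control RNA and 16.4 ± 17.1 after silencing (SD, n = 3 each), where replicate 1 was listed below 0, at -1.64, and replicates 2 and 3 at 32.3 and 18.5. Libraries shared exactly equal values in 3 sets. Replicate 1 of both groups formed a set, siR-Con replicates 2 and 3 with siR-GAL3 replicate 3 formed another, and siR-GAL3 replicate 2 stood alone and lay apart on the first principal component, which held 65.2% of the variance. This library held the highest value of 19 of the 36 genes and the lowest of 8, so results are also given without it. The labelled cell type was checked against marker genes, and glial markers were high. The 11 neuronal markers found summed to between 41.4 and 47.2 in the 6 libraries. In Glu + siR-Con their means reached 17.4 (MAP2), with RBFOX3, the gene of the NeuN protein, at 0.396. Of these 11, 3 were higher and 1 lower in Glu + siR-GAL3 without overlap (9.01% of all rows were higher, 16.9% in either direction). The 10 astrocyte markers summed to between 825.5 and 1093, and the 8 oligodendrocyte markers to between 1095 and 1444. The 16 markers of microglia and macrophages summed to between 133.3 and 159.4 in Glu + siR-Con and between 174.3 and 193.5 in Glu + siR-GAL3, without overlap. Astrocyte markers summed to 956.2 or more in every Glu + siR-Con library and to 892.7 or less in every Glu + siR-GAL3 library, and the 5 fibroblast markers found to 43.0 or more and 38.1 or less. Most of the astrocyte sum was GFAP, with a mean of 655.4 in Glu + siR-Con and 523.7 in Glu + siR-GAL3. Of the 10 astrocyte markers, 3 were lower without overlap, GFAP among them, and the others overlapped (16.9% of all rows did not overlap in either direction). In such bulk samples, a change in the number of cells of a type and a change in RNA per cell cannot be told apart.

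**Figure D1:**
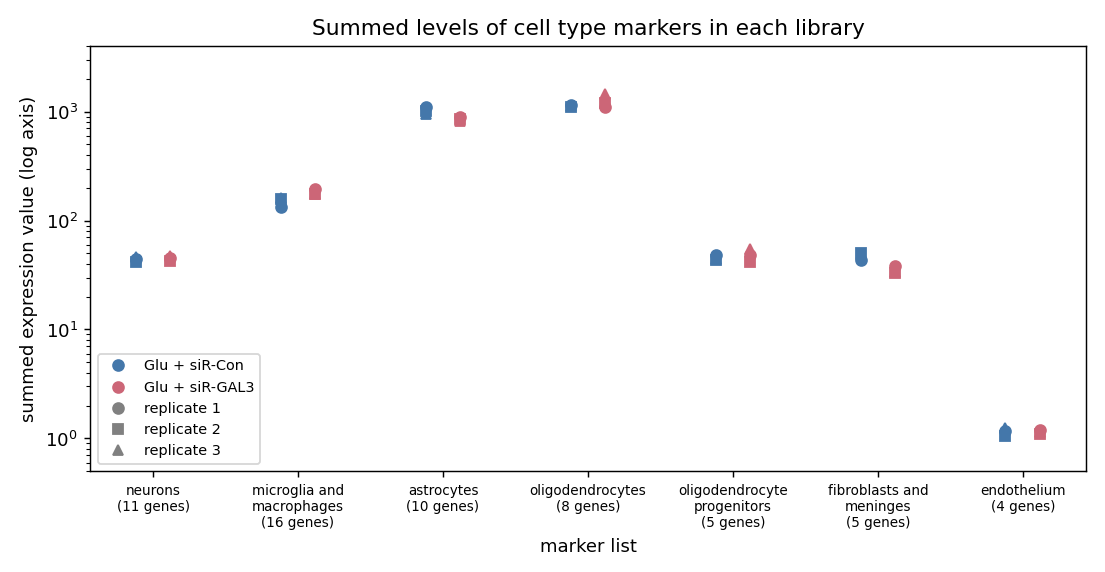
Summed expression values of cell type marker lists (log axis) for each library, with the group given by colour and the replicate by symbol. Sums for astrocytes and oligodendrocytes were far above the neuronal sums of 41.4 to 47.2, and only the sums of microglia and macrophages lay higher in every Glu + siR-GAL3 library than in every Glu + siR-Con library. The sums for astrocytes and for fibroblasts and meninges lay lower in every Glu + siR-GAL3 library.

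Promoter stretches are shown for CASP1, RIPK3 and MLKL, because their groups separated, and for CASP12, the neighbour of CASP1 whose groups overlapped. RefSeq promoter windows of assembly GRCr8 were at hand for 27 of the 36 genes, and each stretch is the 120 bases just before the transcription start in the table, read 5′ to 3′ on the strand of the gene. Capitals mark matches to an interferon response element (GAAANNGAAA), a gamma-activated site (TTCNNNGAA) or an AP-1 site (TGANTCA), each searched on both strands. The stretches lie at chr8:10872710-10872829 (plus strand) for CASP1, chr8:10927068-10927187 (plus) for CASP12, chr15:33262026-33262145 (minus) for RIPK3 and chr19:56213859-56213978 (minus) for MLKL.
CASP1: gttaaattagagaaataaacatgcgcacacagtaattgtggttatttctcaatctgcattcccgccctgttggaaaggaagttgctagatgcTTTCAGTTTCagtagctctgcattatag
CASP12: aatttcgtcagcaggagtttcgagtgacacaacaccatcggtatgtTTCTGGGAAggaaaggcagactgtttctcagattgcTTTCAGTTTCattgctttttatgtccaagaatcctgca
RIPK3: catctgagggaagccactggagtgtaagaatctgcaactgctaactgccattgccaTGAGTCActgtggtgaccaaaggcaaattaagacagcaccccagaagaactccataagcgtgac
MLKL: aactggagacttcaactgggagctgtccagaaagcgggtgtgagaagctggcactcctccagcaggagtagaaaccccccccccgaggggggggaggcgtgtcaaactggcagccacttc
The interferon response element was matched in the 250 bases before the start of 2 of the 27 genes, CASP1 and CASP12, and in 3.41% of all 33469 windows. It lay 28 to 19 bases before the start of CASP1 and 38 to 29 bases before that of CASP12, on the minus strand of both, as the capitals TTTCAGTTTC show. CASP12 also held a gamma-activated site, as did BCL2L1 and BAD, against 7.67% of all windows. The AP-1 site was matched in DIABLO, BIRC2, FAS and RIPK3, against 6.34% of all windows. MLKL held none of these letters. The CASP1 window belongs to the start of 1 transcript, downstream of the annotated start of the gene. CASP1, CASP4 and CASP12 are direct neighbours in the annotation, with no coding gene between them, and so are BIRC2 and BIRC3. A gene was counted if any of its windows held a match, whereas the percentages count windows, so counts and percentages differ in unit. A match describes only the letters, and no binding was measured here.

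Among the inflammatory caspases and the executors of necroptosis and pyroptosis, 5 of 6 genes (83.3%) were higher in every siR-GAL3 library, against 9.01% of all rows. These groups were joined after their values were seen. Taken apart, 2 of 3 inflammatory caspases and 3 of 3 executors were higher in this way, and 3 of the 6 caspases found. Of the 14 BCL2 family genes found, 1 did not overlap between groups (7.14%, against 16.9% of all rows in either direction). None of these differences held after adjustment over all genes. CASP1 was 2.39 times, RIPK3 1.73 times, GSDMD 1.69 times, MLKL 1.49 times, CASP8 1.37 times and CASP4 1.20 times its Glu + siR-Con mean. The limma fit took in the 8495 rows that averaged at least 1 across libraries, which left 21 of the 36 genes to test. None of the 21 had a Benjamini-Hochberg adjusted p under 0.05 (0% of all genes tested) or met the study's criteria of |log2 fold change| > 1 with an unadjusted p under 0.05 (0.318% of all genes tested). At an unadjusted p under 0.05 there was 1 of 21, CASP4 (4.76%), against 8.66% of all genes tested. The other 15 genes had lower means, and limma was therefore also run over all 17648 rows. There, 7 of the 36 genes had an unadjusted p under 0.05 (19.4%, against 9.20% of all rows), and all 7 were higher in Glu + siR-GAL3 (5.03% of all rows). They were CASP1, CASP4, CASP8, RIPK3, MLKL, GSDMD and BIK, and their smallest adjusted p was 0.231. Among genes with a mean under 1 the share was 6 of 15 (40.0%), against 9.48% of such rows. Without siR-GAL3 replicate 2, 6 of the 36 kept an unadjusted p under 0.05, and CASP4 was the one that did not in that fit. In the fit of the more abundant rows without that library there were 2, CASP4 and BNIP3.

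Of all 36 genes, 8 had every siR-GAL3 value above every siR-Con value (22.2%, against 9.01% of all rows). These were the 7 above and CYCS, and 1 gene, PARP1, was lower without overlap. In either direction this made 25.0% of the genes, against 16.9% of all rows. An exact permutation test of 3 against 3 libraries cannot go below p = 0.1. A gene without overlap has this p by definition, so the test adds nothing for the 9 genes. The log2 fold change was above 0 for 25 of 36 genes (69.4%), against 51.0% of all rows, and its median was 0.06 against 0.00051 over all rows. These fold changes are on the log2(value + 1) scale and understate the change of genes with values near or under 1.

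**Figure D2:**
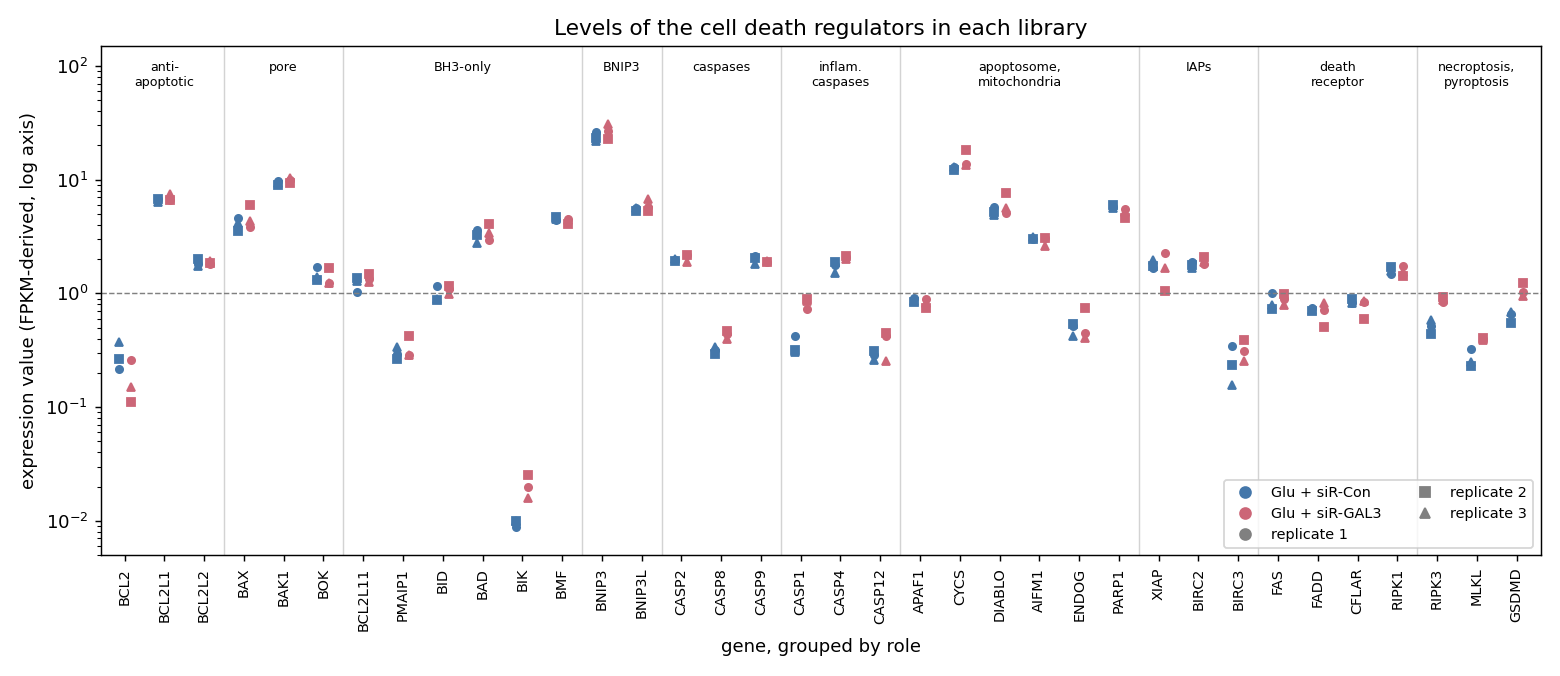
Expression values of the 36 genes (log axis) in each library, grouped by role, with Glu + siR-Con in blue, Glu + siR-GAL3 in red and replicates by symbol. The dashed line marks a value of 1, and the 3 genes of necroptosis and pyroptosis and CASP1 show red points above all blue points.

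**Figure D3:**
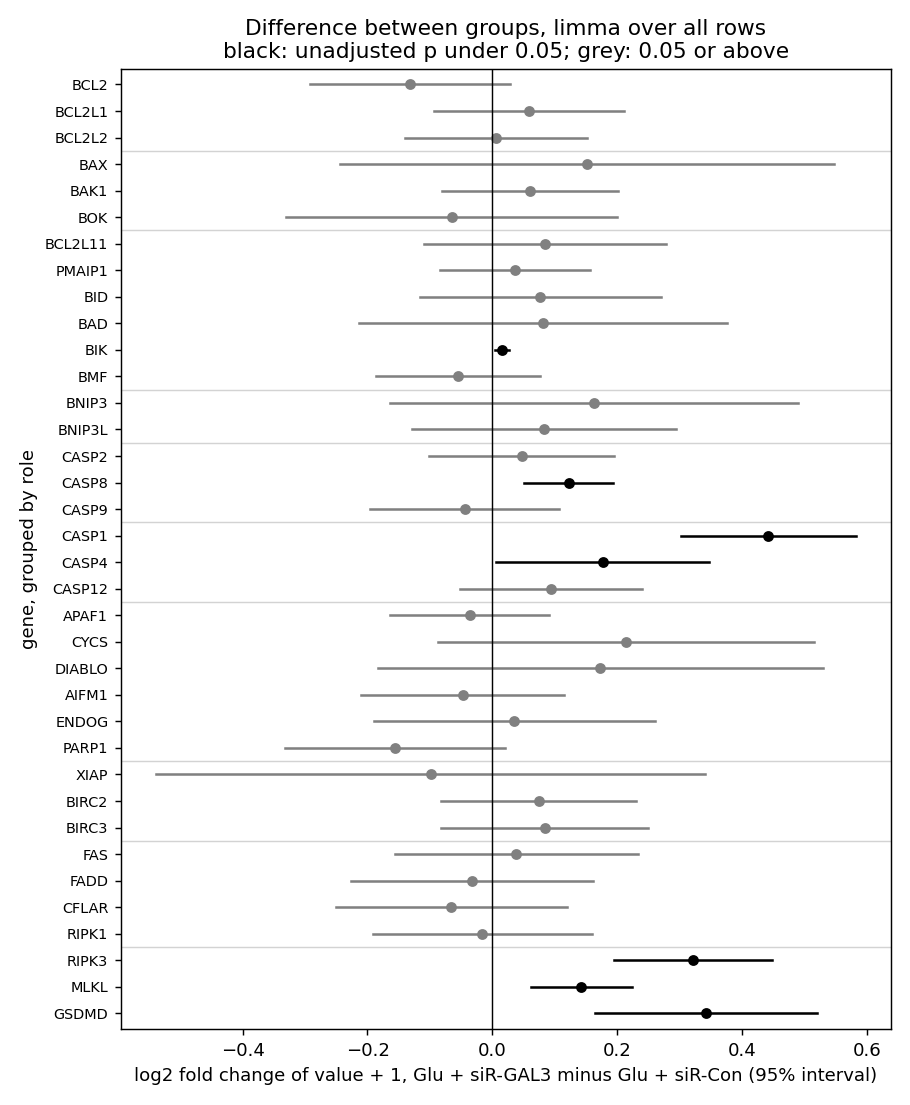
Log2 fold change of value + 1 between Glu + siR-GAL3 and Glu + siR-Con with its 95% interval from limma over all rows. The 7 genes drawn in black had an unadjusted p under 0.05 and all lie to the right of 0, and no gene had an adjusted p under 0.05.

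CASP1, the caspase of inflammasomes that matures IL1B and IL18, differed most. It was 0.420, 0.320 and 0.303 in replicates 1, 2 and 3 of siR-Con, and 0.730, 0.900 and 0.858 in the same order of siR-GAL3. The lowest siR-GAL3 value was well above the highest siR-Con value. CASP1 was therefore also higher within both library sets that held both groups, which adds no further support. In limma over all rows, its log2 fold change was 0.44 (standard error 0.0561, unadjusted p = 0.00032, adjusted p = 0.231). With a pseudocount of 0.1 in place of 1, the log2 fold change was 1.06 (unadjusted p = 0.00048, adjusted p = 0.243). This meets the study's criteria, which the paper states in its section on public datasets, but the share of all rows meeting them in that fit was not counted. For the sequencing data the supplement gives an adjusted p under 0.05. CASP4, the rodent caspase-11 that senses cytosolic lipopolysaccharide, was 1.78, 1.89 and 1.52 in siR-Con and 2.11, 2.12 and 2.00 in siR-GAL3, again in the order of the replicates. The groups did not overlap but lay close together. Its log2 fold change was 0.18 (standard error 0.0721, unadjusted p = 0.045, adjusted p = 0.568) in the fit of the more abundant rows, and the unadjusted p passed 0.05 when any of 4 single libraries was left out. CASP12, a relative linked to the endoplasmic reticulum, was 0.287, 0.309 and 0.260 in siR-Con and 0.418, 0.449 and 0.256 in siR-GAL3. Here siR-GAL3 replicate 3 was below every siR-Con library, so the groups overlapped (unadjusted p = 0.163).

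The executors of lytic death shared the direction of CASP1. GSDMD, whose cleaved fragment forms the pyroptotic pore, was 0.665, 0.546 and 0.681 in siR-Con and 1.03, 1.23 and 0.946 in siR-GAL3. Its log2 fold change was 0.34 (standard error 0.0715, unadjusted p = 0.0037). RIPK3, the kinase of the necrosome, was 0.515, 0.439 and 0.579 in siR-Con and 0.847, 0.936 and 0.875 in siR-GAL3, and limma gave it a log2 fold change of 0.32 (standard error 0.0508, unadjusted p = 0.00098). MLKL, the membrane-rupturing target of RIPK3, was 0.326, 0.230 and 0.249 in siR-Con and 0.400, 0.405 and 0.392 in siR-GAL3, and limma gave it a log2 fold change of 0.14 (standard error 0.0326, unadjusted p = 0.0056). All 3 genes were higher without overlap, which by itself makes them higher within both library sets. CASP8, the initiator caspase of death receptors that also restrains necroptosis, was 0.319, 0.293 and 0.337 in siR-Con and 0.436, 0.466 and 0.394 in siR-GAL3. Its log2 fold change was 0.12 (standard error 0.0286, unadjusted p = 0.0064). Values of these 5 genes lay near or under 1, and their per-library values are given because of how they separated, which was chosen after they were seen. With the library set as a block over all rows, the log2 fold changes were 0.41 for CASP1, 0.30 for RIPK3, 0.28 for GSDMD, 0.13 for MLKL and 0.10 for CASP8, and without siR-GAL3 replicate 2 they were 0.41, 0.30, 0.29, 0.14 and 0.10 in the same order. Each kept an unadjusted p under 0.05 in both fits. These fits are not separate checks, because siR-GAL3 replicate 2, alone in its set, carries no weight in the fit with the block. In the annotation, CASP8 overlaps CFLAR and RIPK3 overlaps NFATC4. The sources do not say that reads were counted by strand, so reads from these overlaps may have been assigned to either gene. The mean of NFATC4 was 0.442 ± 0.0226 with the control RNA and 0.403 ± 0.0786 after silencing (SD, n = 3 each).

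Some microglial markers moved with these genes. Of the 16 markers, 8 had an unadjusted p under 0.05 in limma over all rows, against 9.20% of all rows. All 8 were higher in Glu + siR-GAL3 without overlap, against 9.01% of all rows. They included CD68, a lysosomal protein of phagocytes, at 9.15 ± 0.412 and 13.8 ± 0.671, and PTPRC, the pan-leukocyte CD45, at 1.03 ± 0.0523 and 1.73 ± 0.213 (SD, n = 3 each). Pairs of means are given with Glu + siR-Con first throughout. The other markers overlapped between groups, LAPTM5 with a lower mean after silencing (11.1 ± 2.36 and 10.5 ± 1.13, SD, n = 3 each). Among them were the homeostatic markers P2RY12, at 1.59 ± 0.301 and 1.62 ± 0.186, and CX3CR1, at 3.99 ± 0.668 and 4.13 ± 1.29 (SD, n = 3 each). The largest values in the summed microglial level were those of C1QC, C1QB and C1QA. Their means were 31.9, 31.5 and 23.8 in Glu + siR-Con, where the sum averaged 150.5. In Glu + siR-GAL3 they were 39.4, 38.1 and 25.7, with a sum of 181.1. Ratios to the sum therefore weigh these genes most. Expressed per 1000 of the summed microglial level, CASP1 was 1.90 to 3.15 in siR-Con and 3.77 to 5.13 in siR-GAL3. RIPK3 per 1000 was 2.76 to 3.86 against 4.38 to 5.34, and GSDMD 3.44 to 4.99 against 5.31 to 7.02, without overlap. CASP4, CASP8 and MLKL overlapped on this scale. The outcome depended on the marker used. Over each of the 16 markers alone, a choice made after seeing the data, CASP1 was higher without overlap for 13, RIPK3 for 10, GSDMD for 9, CASP8 and MLKL for 1 each and CASP4 for 0. The genes had been picked for separating, so a ratio to a marker that overlapped between groups can repeat that separation. Of the 8 markers that rose, CASP1 overlapped over AIF1, ITGAM and PTPRC only. RIPK3 and GSDMD overlapped over AIF1, ITGAM, CD68, PTPRC and CD14, and GSDMD also over FCER1G, but not over the others. Over PTPRC alone, CASP1 was 0.307 to 0.391 in siR-Con and 0.370 to 0.574 in siR-GAL3, and RIPK3 and GSDMD overlapped as well. Which cells held these transcripts was not tested.

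**Figure D4:**
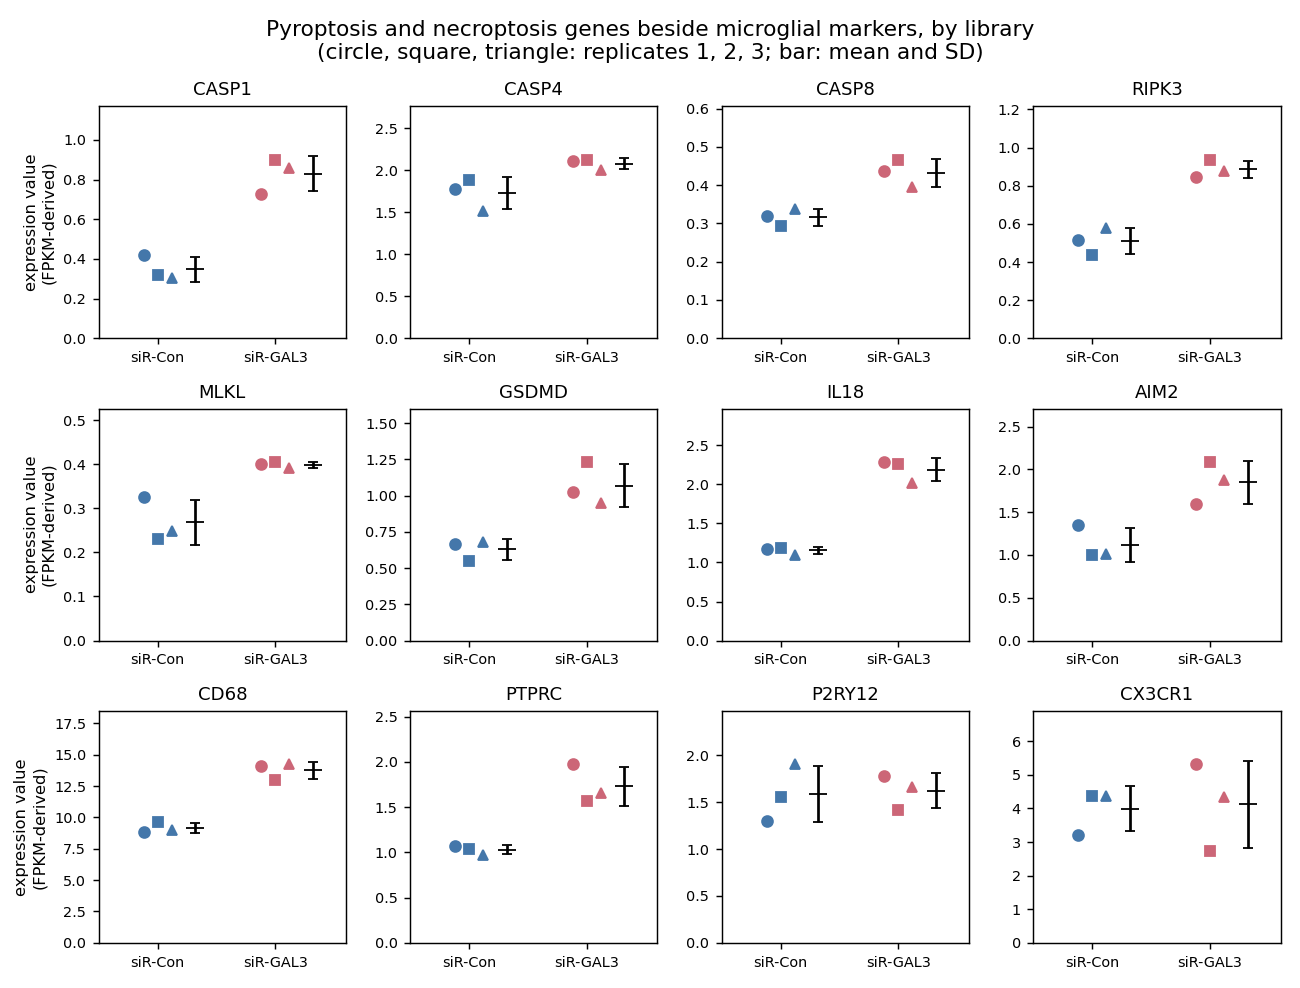
Expression values by library for 6 cell death genes, IL18 and AIM2, with 4 markers of microglia in the bottom row, each panel on its own linear axis from 0 and with the group mean and SD (n = 3). The genes of the upper rows, CD68 and PTPRC do not overlap between groups, whereas P2RY12 and CX3CR1 do.

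Of the 14 BCL2 family genes found, the BNIP3 receptors included, 1 had an unadjusted p under 0.05 over all rows (7.14%, near the 9.20% of all rows). It was BIK, at the lowest level of all 36 genes. BCL2L1, which encodes BCL-xL and was the most abundant antiapoptotic gene found, was 6.79, 6.72 and 6.33 in siR-Con and 6.64, 6.64 and 7.53 in siR-GAL3. BCL2L2 was 1.86 ± 0.145 and 1.87 ± 0.0649 (SD, n = 3 each). BCL2 itself was far lower, at 0.217, 0.265 and 0.375 in siR-Con and 0.259, 0.112 and 0.151 in siR-GAL3. Its siR-GAL3 replicate 1 lay inside the siR-Con range, and the log2 fold change of -0.13 had a 95% interval of -0.29 to 0.03.

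Of the pore-forming genes, BAK1 was the most abundant at 9.81, 8.96 and 9.38 in siR-Con and 9.89, 9.27 and 10.3 in siR-GAL3. BAX was 4.62, 3.52 and 4.13 in siR-Con and 3.84, 5.96 and 4.30 in siR-GAL3, with only replicate 2 of siR-GAL3 above the siR-Con range. BOK, a BAX relative, was 1.48 ± 0.212 and 1.38 ± 0.259 (SD, n = 3 each). The ratio of BAX to BCL2, a common balance of death and survival, was 11.0 to 21.3 in Glu + siR-Con and 14.8 to 53.4 in Glu + siR-GAL3, the highest again in replicate 2. On the log2(value + 1) scale the ratio was higher by 0.28 in Glu + siR-GAL3 (exact permutation test, two-sided p = 0.3), and by 0.0925 without that replicate (p = 0.6). The ratio of BAX to BCL2L1 was 0.524 to 0.680 and 0.571 to 0.897, a difference of 0.0934 on that scale (exact permutation test, two-sided p = 0.8).

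Among BH3-only genes, BMF, which answers to loss of attachment, was the most abundant, at 4.46, 4.68 and 4.48 in siR-Con and 4.50, 4.04 and 4.46 in siR-GAL3. BAD, the BH3-only protein held inactive by survival kinases, was 3.22 ± 0.412 and 3.47 ± 0.554 (SD, n = 3 each). BCL2L11, encoding BIM, was 1.23 ± 0.167 and 1.36 ± 0.105, BID, the substrate of CASP8, was 0.974 ± 0.159 and 1.08 ± 0.0918, and PMAIP1, encoding NOXA, was 0.298 ± 0.0350 and 0.332 ± 0.0796 (SD, n = 3 each). These 4 genes and BMF had 95% intervals of the log2 fold change that held 0. BIK was between 0.0087 and 0.0100 in siR-Con and between 0.0160 and 0.0252 in siR-GAL3, levels too low to interpret as a ratio. The BNIP3 pair, receptors of mitophagy, was the most abundant group. BNIP3 was 26.1, 23.3 and 21.8 in siR-Con and 26.7, 22.6 and 31.2 in siR-GAL3, and BNIP3L was 5.55 ± 0.202 and 5.96 ± 0.738 (SD, n = 3 each). With the library set as a block, BNIP3 was higher (log2 fold change 0.27, unadjusted p = 0.0307) and BOK lower (-0.17, unadjusted p = 0.0396), and over all rows those p-values were 0.110 and 0.0851. In that fit siR-GAL3 replicate 2, alone in its set, carries no weight, and none of the 21 genes had an adjusted p under 0.05, against 1.25% of all genes tested.

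Of the 8 intrinsic caspases and mitochondrial factors, none had an unadjusted p under 0.05 in either fit. The share was 8.66% of all genes tested and 9.20% of all rows, so a count of 0 among so few genes says little. CASP2, which responds to DNA damage and failed division, was 1.96, 1.94 and 2.01 in siR-Con and 2.16, 2.18 and 1.88 in siR-GAL3, and CASP9, the apoptosome caspase, was 1.99 ± 0.175 and 1.90 ± 0.0316 (SD, n = 3 each). APAF1, the apoptosome scaffold, was 0.870 ± 0.0408 and 0.824 ± 0.0708 (SD, n = 3 each). CYCS, cytochrome c, was 12.9, 12.3 and 13.0 in siR-Con and 13.6, 18.2 and 13.4 in siR-GAL3. Its groups did not overlap, but replicates 1 and 3 of siR-GAL3 lay just above siR-Con and replicate 2 lay far above. The log2 fold change of CYCS was 0.21 among genes with a mean of at least 1 (unadjusted p = 0.115). The annotation lists pseudogenes of CYCS, and how reads shared with them were counted is not given in the sources used here. PARP1, the DNA repair enzyme cleaved by caspases, was 5.76, 5.98 and 5.63 in siR-Con and 5.56, 4.58 and 5.18 in siR-GAL3, lower in every library (log2 fold change -0.16, unadjusted p = 0.0921). DIABLO, which neutralises inhibitors of apoptosis, was 5.30 ± 0.443 and 6.17 ± 1.36 (SD, n = 3 each), the latter with 7.70 in replicate 2. AIFM1, a flavoprotein released from mitochondria, was 3.04 ± 0.0840 and 2.92 ± 0.269, and the nuclease ENDOG was 0.490 ± 0.0573 and 0.533 ± 0.182 (SD, n = 3 each).

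The brakes on caspases overlapped between groups, as did most rows (16.9% of all rows did not overlap in either direction). BIRC2, a ubiquitin ligase of the TNF receptor complex, was 1.88, 1.79 and 1.69 in siR-Con and 1.81, 2.11 and 1.89 in siR-GAL3. XIAP, the direct caspase inhibitor, was 1.69, 1.75 and 1.98 in siR-Con and 2.28, 1.05 and 1.66 in siR-GAL3, so siR-GAL3 held both the highest and the lowest value. BIRC3 was 0.245 ± 0.0946 and 0.318 ± 0.0686 (SD, n = 3 each). In the death receptor complex, RIPK1, the kinase upstream of RIPK3, was the most abundant at 1.49, 1.72 and 1.59 in siR-Con and 1.74, 1.42 and 1.55 in siR-GAL3. FAS was 0.842 ± 0.150 and 0.889 ± 0.0931, its adaptor FADD was 0.717 ± 0.0253 and 0.683 ± 0.160, and CFLAR, the decoy that blocks CASP8, was 0.842 ± 0.0408 and 0.764 ± 0.149 (SD, n = 3 each). None of these 7 genes had an unadjusted p under 0.05 in either fit, against 8.66% of all genes tested and 9.20% of all rows. With so few genes this says little.

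Other genes of the same pathways were counted from lists chosen by function, with earlier results of these data known. Their counts are therefore not independent of these data. Of 76 listed, 69 were found and 43 had a mean of at least 1, of which 4 were higher and 3 lower at an unadjusted p under 0.05 in limma (16.3% in all, against 8.66% of all genes tested). The list of other necroptosis and pyroptosis genes held 2 of these, both higher. IL18, the cytokine matured by CASP1, was 1.15 ± 0.0464 and 2.19 ± 0.147 (SD, n = 3 each), with a limma log2 fold change of 0.56 (standard error 0.0627, adjusted p = 0.0921). With the library set as a block, IL18 was the only one of the 43 tested with an adjusted p under 0.05 (0.0173, against 1.25% of all genes tested), but over all rows that adjusted p was 0.295. AIM2, the inflammasome sensor of cytosolic DNA, was 1.12 ± 0.196 and 1.85 ± 0.248 (SD, n = 3 each), with a limma log2 fold change of 0.43 (unadjusted p = 0.0029). Over all rows, 5 of the 13 genes found in this list had an unadjusted p under 0.05 (38.5%, against 9.20% of all rows), all higher, with ZBP1, NLRP1A and IL1A at means under 1. The inflammasome genes NLRP3 and PYCARD overlapped between groups, with NLRP3 at 0.452 ± 0.0526 and 0.581 ± 0.111 and the adaptor PYCARD at 1.59 ± 0.163 and 2.17 ± 0.626 (SD, n = 3 each). IL1B was 0.0184 ± 0.0022 and 0.0268 ± 0.0160 (SD, n = 3 each).

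The remaining lists were also small, and their counts can say little. In limma over all rows they held, in the order below, 2 of 12, 1 of 15, 1 of 13 and 1 of 16 genes at an unadjusted p under 0.05. The share was 9.20% over all rows and 8.66% over the genes tested, which the counts below refer to. Among 8 tested genes that belong to the BCL2 family or work beside it, such as co-chaperones and mitochondrial channels, the antiapoptotic BCL2A1 of myeloid cells was higher (0.865 ± 0.0804 and 1.36 ± 0.294, SD, n = 3 each) and the co-chaperone BAG3 lower (3.93 ± 0.0508 and 3.34 ± 0.245) at an unadjusted p under 0.05. Among 9 other caspase genes and regulators tested, 1 was higher, BIRC5, encoding the mitotic protein survivin, at 2.26 ± 0.370 and 3.55 ± 0.988 (SD, n = 3 each). Among 6 TNF and death receptor genes tested, TNFRSF21, the death receptor DR6, was lower, at 4.25 ± 0.169 and 3.58 ± 0.132 (SD, n = 3 each). The unadjusted p of BAG3 passed 0.05 in 6 of 14 alternatives, without any single library other than siR-GAL3 replicate 2 among them. That of TNFRSF21 did so in 4, without siR-Con replicate 2 or 3 or siR-GAL3 replicate 3 among them, and that of BIRC5 in 2, without siR-Con replicate 2 or 3. Of 13 genes of the DNA damage response tested, CCNG1, an atypical cyclin, was lower at 20.2 ± 0.315 and 16.8 ± 1.05 (SD, n = 3 each).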

How the data were processed

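RNA of 6 libraries was sequenced, and per the study's methods the authors aligned reads with STAR, counted them with HTSeq and estimated FPKM. Batch removal, standardization and a correction for differences within groups followed. The genome build and the use of strand are not given in the sources used here, and the sources differ on poly(A) selection and ribosomal depletion. The deposited values are treated as a score, an FPKM-derived linear number, because 3.86% of them are below 0, although plain FPKM had been assumed when the test was chosen. None of the 36 genes held a value below 0. All 6 columns were matched to a library by name.

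Values below 0 were set to 0, and log2(value + 1) was modelled in limma (version 3.58.1, R version 4.3.3), trend included, over 8495 genes with a mean of at least 1 and, as an alternative, over all 17648 rows. Adjusted p-values are Benjamini-Hochberg values over all genes fitted. Ratios were compared with exact permutation tests in SciPy 1.17.1. On simulated data, an unadjusted p under 0.05 was found for 196 of 200 genes given a log2 change of 1 and for 5.70% of the unchanged genes. The simulation drew libraries independently and covered only genes with a mean of at least 1. Its change exceeded the largest of the 36 genes (0.441 over all rows), so it does not show the power for them. The supplement names DESeq for the sequencing data, which needs counts and was not run. The alternatives were other filters, pseudocounts, scalings and blocks, and leaving out each library. The genes and lists were chosen with earlier results of these data known. All 36 genes are named. Values per library are given for genes with a mean of at least 1 that had an unadjusted p under 0.05, did not overlap or led their group in abundance, and for further genes after their values were seen. Of each pathway list, genes with an unadjusted p under 0.05 are named, at most 4, and further ones were added after their values were seen. Promoter sequences and gene names come from RefSeq (GRCr8), where all 36 symbols matched. Replicate numbers did not pair the libraries.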

Additional observations from a re-analysis of the deposited data

How the results depend on the processing

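At an unadjusted p under 0.05, 736 of all genes were counted, against 1623 without a filter on low values, 1174 with the library set as a block, 260 at a mean of at least 5 and 344 to 1388 with each library left out, the extremes without siR-Con replicate 3 and siR-GAL3 replicate 2 (350 without siR-Con replicate 2, 1249 without siR-GAL3 replicate 1). For the cell death genes the count of 1 became 7 without the filter, 2 with the library set as a block, 0 at a mean of at least 5, 0 with the replicate block and 0 to 2 with each library left out. The 0 came without siR-Con replicate 1, siR-Con replicate 3 or siR-GAL3 replicate 3, and without siR-GAL3 replicate 1 the 1 gene was PARP1 in place of CASP4. Over all rows, a set of fits added after seeing the data, the count of 7 lay between 5 and 8 in every alternative. There CASP1, CASP8, RIPK3, MLKL and GSDMD kept an unadjusted p under 0.05 in all 13 alternatives, and BIK lost it in 3, leaving out siR-Con replicate 1 among them. CASP4 lost it in 9 of 14 over all rows. Among genes with a mean of at least 1 it lost it in 6 of 14, with the library set as a block (unadjusted p = 0.0709), with the replicate block and without siR-Con replicate 1 or 3 or siR-GAL3 replicate 1 or 3, and its lowest log2 fold change was 0.12. A pseudocount of 0.1 moved the log2 fold changes over all rows to 1.06 for CASP1, 0.70 for RIPK3, 0.67 for GSDMD, 0.45 for MLKL and 0.35 for CASP8. The log2 fold change of LGALS3 was -2.91 (unadjusted p = 0.0462), and that p passed 0.05 without any 1 siR-Con library, without a filter (-2.91), at a mean of at least 5 (-2.91) and with a pseudocount of 0.1 (-4.03). With each library left out it lay between -3.88 and -1.35, the latter without siR-GAL3 replicate 1. The difference in the BAX to BCL2 ratio was 0.28 with the replicate block as without it (exact p = 0.5). Same-numbered libraries did not deviate together, with correlations of -0.170, -0.070 and 0.044. Over all rows, 9 of the 36 genes turned direction with the library set as a block (BAX, PMAIP1, BAD, ENDOG, XIAP, FAS, FADD, CFLAR and RIPK1), 8 of these without siR-GAL3 replicate 2, and 0 to 3 in each other alternative. None of them had an unadjusted p under 0.05. The causes were not tested. The read depth is unknown, which limits what genes with values under 1 can show.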
